A study of Mus musculus with 2 samples.

Results

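The cells described here are mouse gastruloid cells that carried transcripts of 3 naive pluripotency genes at once. A gastruloid is a ball of cultured embryonic stem cells that develops tissues resembling those of the early embryo. A barcode was kept when at least 1000 genes were detected in it and at most 10% of its unique molecular identifiers (UMIs, counted RNA molecules) were mitochondrial. Gated cells were chosen by 3 measured values, since a kept cell was gated when it had at least 1 UMI of Zfp42, at least 1 UMI of Tdh and at least 3 UMIs of Dppa5a. The gate held 1289 of 13826 kept cells, of which 510 were untreated and 779 came from the dTAG-13 library. All remaining kept cells, 6136 untreated and 6401 with dTAG-13, are called other cells.

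Both libraries were made from somitic gastruloids of the E14_triple reporter line, in which the endogenous Zeb2 gene carries an HA-FKBP12F36V degron tag, so the untreated cells carried the tag too. In both groups 300 cells were seeded per well, 3 µM CHIR99021, an activator of WNT signalling, was added at 48 h and 10% Matrigel at 96 h. The small molecule dTAG-13 directs a protein with this tag to degradation, and in 1 group it was given at 100 nM at 72 h and again at 96 h. The sample labels call the control untreated, whereas the series text names DMSO. About 32 gastruloids were pooled into each library and live cells were sorted, so there was 1 library per group, no replicate check and no test of any difference. Intervals below are 95% intervals that cover counting error only.

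In the naive state, which embryonic stem cells share with the epiblast before implantation, transcription factors such as Nanog, Esrrb and the Klf family keep cells unspecialised. On leaving it, cells pass through a formative state marked by Otx2, Pou3f1 and Dnmt3b before they take up the fates of the germ layers. Early primordial germ cells use many of the same genes, among them Dppa3, Nanog and Prdm14, so the programs share markers.

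The libraries held 158002807 and 176677276 UMIs, untreated first here and wherever a pair of values is given without labels. Gated cells were deeper than other cells, with medians of 27824.5 and 30365 UMIs against 20033.5 and 19925. Their median mitochondrial share was 5.28% and 5.32%, against 4.52% and 4.72% in other cells. The highest doublet scores marked 56 of 510 and 126 of 779 gated cells as likely doublets, against 6.24% and 6.85% of all kept cells. The libraries shared 14 barcodes, of which 0 were gated.

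The gate took 7.67% of the untreated library's kept cells (interval 7.05 to 8.34) and 10.8% with dTAG-13 (10.1 to 11.6). The difference was 3.18 percentage points (2.21 to 4.14). Because the gate counts UMIs, it admits deeper cells more readily. When every cell was thinned to 5000 UMIs before gating, the shares were 5.26% and 6.92% and the difference was 1.66 points. The share was higher with dTAG-13 in this and in each of the other 5 alternative gates or cell filters tried.

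The gate genes themselves describe the choice and support nothing further. Dppa5a, a small RNA-binding protein of pluripotent cells, reached 3977 and 2849 CPM (a gene's UMIs in the cells named, scaled to a fixed total of their summed UMIs) in gated cells and 41.2 and 39.5 CPM in other cells. Zfp42, also called Rex1, stood at 541 and 458 CPM against 5.48 and 8.41 CPM. Tdh, the threonine dehydrogenase that mouse embryonic stem cells need, stood at 468 and 351 CPM against 2.21 and 4.02 CPM. On mm10, Zfp42 lies at chr8:43295063-43306980 on the minus strand, Tdh at chr14:63492347-63509092 on the minus strand and Dppa5a at chr9:78367052-78368177 on the minus strand.

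Cells just inside and just outside the threshold were few. With Zfp42 and Tdh detected, 7 untreated and 19 dTAG-13 cells had 2 Dppa5a UMIs and 3 and 11 cells had 3. Nanog was 13.7 and 20.97 CPM in the cells with 2 Dppa5a UMIs and 0 and 20.02 CPM in those with 3. The gate as a whole had 111 and 87.4 CPM, so Nanog was lower on both sides of the threshold than in the gate. Cells that missed only Tdh numbered 102 and 139, and cells that missed only Zfp42 numbered 28 and 50.

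The label of naive pluripotent cells was checked with the 2 markers the gate did not use. Dppa3, which guards maternal DNA methylation in the early embryo, had 197 CPM in untreated gated cells and 160 CPM with dTAG-13, against 1.97 and 5.00 CPM in other cells. Esrrb, an orphan nuclear receptor of the naive network, had 26.3 and 26.1 CPM against 0.25 and 0.51 CPM. Both were higher in gated than in other cells of each library. After thinning to 5000 UMIs, Dppa3 was detected in 40.3% and 40.4% of gated cells and in 0.678% and 1.92% of other cells, and without thinning in 67.3% and 67.9% against 2.17% and 5.36%. The data hold 1 collection per library, so whether these cells stayed naive throughout or returned to that state was not measured.

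**Figure D1:**
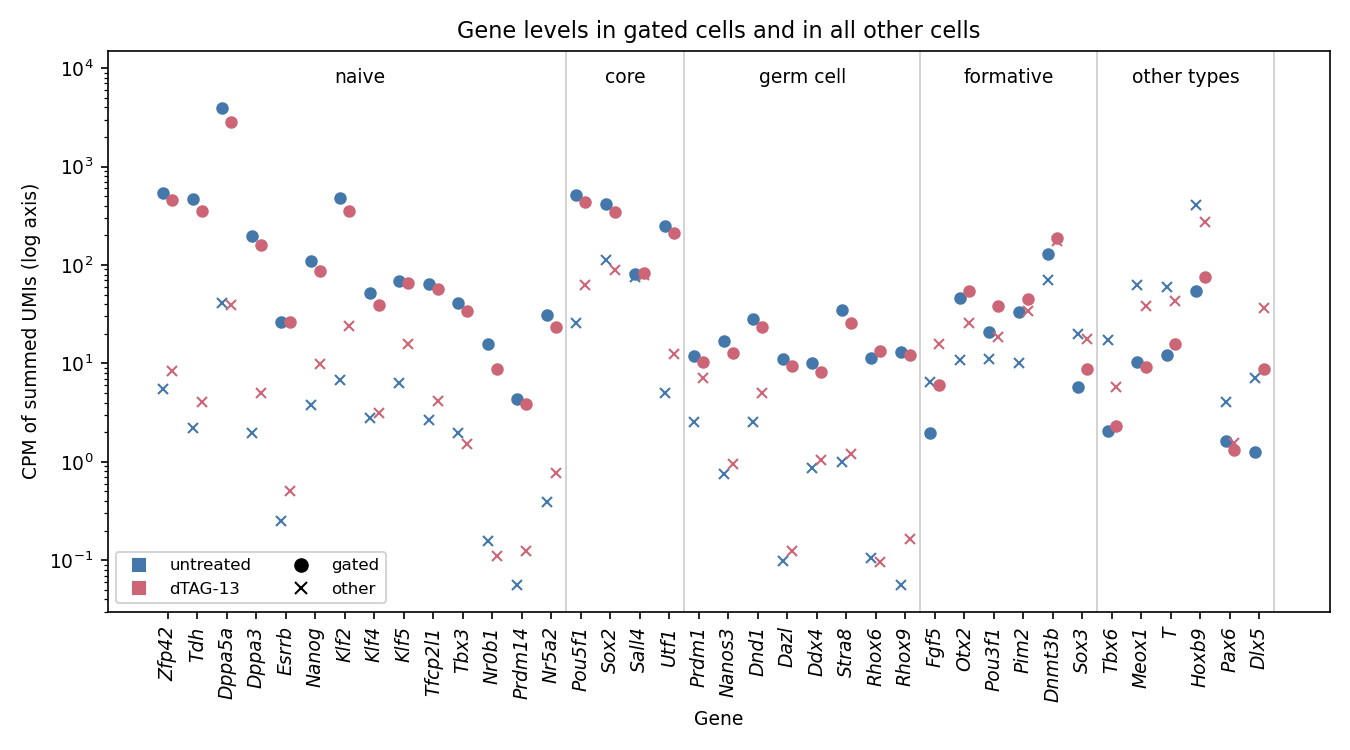
Levels of 38 genes in gated cells (circles) and in all other cells (crosses) of the untreated (blue) and dTAG-13 (red) libraries, as CPM of summed UMIs on a log axis. For Nanog the circles sit at 111 and 87.4 CPM and the crosses at 3.82 and 9.86 CPM, while for Hoxb9 the order is turned.

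Across the transcriptome, 319 of 6331 genes (5.04%) were at least 2-fold higher in gated than in other cells in both libraries, and 358 (5.65%) were at least 2-fold lower. These genes had at least 20 CPM in gated or other cells of a library. A gene low in other cells could thus enter through gated cells alone, and the reverse. Counts over gene lists below carry the choice made by this minimum, and the shares of all genes are their background. The gate used the same cells, so the comparison is a description without a test. Log2 ratios here and below carry a prior of 1 CPM on both sides.

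The naive transcription factors were high together. Of 13 listed factors, 11 reached the minimum of 20 CPM. Of these 11, 10 were higher in gated cells and 0 were lower, against 5.04% and 5.65% of all genes. The median log2 ratio of the 11 factors was 3.82 in the untreated and 3.30 in the dTAG-13 library. The median of all genes was -0.09 in both. Klf2 reached 479 and 349 CPM against 6.73 and 24.1 CPM, and Nanog 111 and 87.4 CPM against 3.82 and 9.86 CPM. Tfcp2l1, a target of LIF and STAT3 signalling, had 63.8 and 56.5 CPM against 2.68 and 4.12 CPM. Nr5a2, a nuclear receptor that can drive Pou5f1, had 30.9 and 23.3 CPM against 0.39 and 0.76 CPM. Each of these 4 factors was higher in the gate of both libraries. Tbx3, a T-box factor downstream of LIF, had 41.0 and 33.8 CPM against 1.96 and 1.53 CPM, and Klf4 had 51.7 and 39.5 CPM against 2.78 and 3.12 CPM. Klf5, which epithelia use too, had 68.9 and 64.9 CPM against 6.38 and 15.8 CPM. Tfap2c did not pass, with 78.1 and 65.3 CPM against 13.8 and 39.4 CPM. Prdm14, at 4.34 and 3.91 CPM, and Nr0b1, at 15.9 and 8.79 CPM, lay below the minimum.

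Single cells held several of these factors at once. Over 10 naive factors (Esrrb, Nanog, Klf2, Klf4, Klf5, Tfcp2l1, Tbx3, Nr0b1, Prdm14 and Nr5a2) and at 5000 UMIs a cell, the median gated cell had 2 detected in each library. At least 3 were detected in 45.2% of untreated and 39.3% of dTAG-13 gated cells. In other cells this share was 0.0992% and 0.206%. Among cells of at least 3200 CPM of Dppa5a, the median was 3 and the share with at least 3 was 56.1% and 56.5%. At the other end, 6.48% and 11.7% of gated cells had 0 of the 10 at this depth. Esrrb and Nanog tended to be found together: without thinning, Nanog was detected in 90.7% and 88.0% of gated cells with Esrrb and in 74.6% and 68.5% of those without it. Median depths with and without Esrrb were 27790.5 and 27824.5 UMIs untreated and 30065 and 30386 UMIs with dTAG-13.

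Of the 6 core pluripotency factors, 3 were higher in gated cells and 0 were lower, against 5.04% and 5.65% of all genes. Pou5f1, the gene of OCT4, had 515 and 441 CPM against 25.5 and 62.5 CPM. Sox2, which neural progenitors also express, had 420 and 346 CPM against 112 and 89.6 CPM. Utf1, a chromatin factor of pluripotent cells, had 249 and 210 CPM against 5.01 and 12.4 CPM. Sall4 was at almost the same level in both populations, 81.5 and 82.7 CPM against 74.7 and 78.7 CPM, and Lin28a did not pass the 2-fold threshold either.

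Effectors and surface genes of the naive state were high as well. Of 27 measured, 24 were higher and 0 were lower, with median log2 ratios of 4.81 and 3.91. Over all genes 5.04% were higher. Members such as Spp1, Pecam1 and Tcl1 reached 20 CPM only in gated cells, so the count and medians carry the choice made by the minimum. Among the 15 genes with the highest ratios were Morc1, a repressor of transposons in the male germ line, with 222 and 142 CPM against 1.90 and 1.37 CPM, and Spp1, the secreted protein osteopontin, with 109 and 87.8 CPM against 0.79 and 0.69 CPM. Ooep, known from the maternal complex of the oocyte, had 105 and 80.4 CPM against 0.67 and 0.83 CPM. Mylpf, a myosin light chain of fast muscle, had 338 and 241 CPM against 3.62 and 4.86 CPM. Calcoco2, Fbxo15, Rpl39l, Dnah8, Dnmt3l, Rbmxl2 and Tuba3a, with Dppa3 and the gate genes, filled the other places. Rpl39l and Tuba3a have close paralogs, so their counts are uncertain. Surface and signalling genes were part of the pattern. Pecam1, an adhesion receptor best known from endothelium, had 45.1 and 40.7 CPM against 0.63 and 0.69 CPM, and Tcl1, a coactivator of AKT, had 31.9 and 31.4 CPM against 0.09 and 0.14 CPM. L1td1 had 513 and 427 CPM against 16.2 and 49.9 CPM. Trim28, Gjb5 and Trh were the 3 measured effectors that did not pass.

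Promoters are shown for 2 of these genes, Zfp42 because it is a gate gene with an octamer and Rbmxl2, a testis-specific relative of the RNA-binding protein RBMX, because it has many CpG sites and an E-box. The sequences are RefSeq's of build GRCm38.p6, from 250 bases before to 50 after the gene's start, read 5′ to 3′ on the gene's strand, with the motif in capitals. The first window is chr8:43306960-43307259 on the minus strand, where the octamer, 186 bases before the start, reads as the reverse complement of ATGCAAAT. The second is chr7:107209195-107209494 on the plus strand, where the E-box CACGTG begins 221 bases before the start.
Zfp42: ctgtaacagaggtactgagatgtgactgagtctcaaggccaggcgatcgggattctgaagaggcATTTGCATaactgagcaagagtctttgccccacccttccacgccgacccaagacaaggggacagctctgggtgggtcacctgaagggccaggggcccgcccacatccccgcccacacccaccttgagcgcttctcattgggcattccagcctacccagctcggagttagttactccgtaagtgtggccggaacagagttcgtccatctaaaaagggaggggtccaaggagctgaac
Rbmxl2: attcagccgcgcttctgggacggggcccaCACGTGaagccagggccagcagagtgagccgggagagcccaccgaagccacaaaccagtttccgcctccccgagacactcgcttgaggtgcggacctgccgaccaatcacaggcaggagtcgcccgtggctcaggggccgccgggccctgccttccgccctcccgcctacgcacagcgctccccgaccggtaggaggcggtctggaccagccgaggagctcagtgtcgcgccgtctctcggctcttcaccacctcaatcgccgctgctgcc

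Promoters of 250 of the 319 gate-high genes were matched by symbol. They held a median of 15 CpG sites per window, against 7 in all 27025 promoters of the table. Rbmxl2 held 29 and Zfp42 held 11. Searched on both strands, the octamer ATGCAAAT was in 3.20% of gate-high promoters and 1.75% of all, and the E2F6 motif GGCGGGAA in 4.80% and 2.24%. The E-box CACGTG was in 6.40% and 7.24%, and the ESRRB motif TCAAGGTCA in 0.40% and 0.407%. These are letter matches and do not show binding. The set of all promoters was not limited to measured genes, whereas gate-high genes had at least 20 CPM. The sets are thus unlike, and a comparison with measured genes only was not made.

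Several germ cell genes were higher in the gate too. Of 18 listed, 8 were measured, 6 of these were higher in gated cells and 0 were lower. Over all genes 5.04% were higher, and members such as Stra8 and Dnd1 reached 20 CPM only in gated cells. Stra8, which prepares germ cells for meiosis, had 34.9 and 25.6 CPM against 1.01 and 1.19 CPM, and Dnd1, an RNA-binding protein that germ cells need to survive, had 28.0 and 23.4 CPM against 2.54 and 5.02 CPM. Below the minimum of 20 CPM, Dazl, an RNA-binding protein of germ cells, had 10.99 and 9.45 CPM against 0.10 and 0.12 CPM, and Nanos3, a translational repressor of germ cells, had 16.9 and 12.8 CPM against 0.76 and 0.96 CPM. Rhox6 and Rhox9, homeobox genes of the X-linked reproductive cluster, had 11.3 and 13.5 CPM and 13.03 and 12.1 CPM, while other cells had at most 0.17 CPM of either. Prdm1, the gene of BLIMP1 that starts the germ cell program, had 11.8 and 10.3 CPM against 2.52 and 7.12 CPM.

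Within the gate, Prdm1 was detected more often in cells with Nanos3 than in cells without it. Of 134 untreated gated cells with a Nanos3 UMI, 37.3% (interval 29.1 to 46.1) also had Prdm1, against 18.9% (15.1 to 23.2) of those without Nanos3. With dTAG-13 the values were 38.5% of 187 cells (31.5 to 45.9) and 21.8% (18.5 to 25.3). Median depth with and without Nanos3 was 27659 and 27839 UMIs in the untreated library and 31095 and 29982.5 UMIs with dTAG-13. Dppa3 followed the same order, with 85.1% and 82.4% of Nanos3 cells against 60.9% and 63.3% of the others.

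The 2-cell-like program, which a small fraction of embryonic stem cells enters, was at or near 0. None of its 19 genes in the files reached 20 CPM. Their summed level was 5.2 and 1.04 CPM in gated cells against 1.135 and 1.82 CPM in other cells. It was thus higher in the gate of the untreated library and lower in that of the dTAG-13 library. Tcstv1, Zfp352 and Zscan4c were at 0 in both libraries. At least 3 of the 19 genes were detected in 2 untreated gated cells and in 1 dTAG-13 gated cell, and 1 of the untreated cells held 8 of them. Outside the gate 1 dTAG-13 cell held 9.

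Formative genes were more often lower than higher in the gate. Of 16 measured, only Otx2, a factor of the formative and anterior epiblast, was higher, and 6 were lower. The shares of all genes were 5.04% higher and 5.65% lower. The higher count is thus near the background and the lower count above it. Lower genes could reach 20 CPM through other cells alone, so the lower count carries the choice made by the minimum. Otx2 had 46.1 and 54.7 CPM against 10.9 and 25.9 CPM. The 6 lower genes were Wnt8a, Tead2, Cdh2, Sox4, Sox11 and Lin28b. Fgf5, the classic marker of primed epiblast, was at 1.97 and 5.99 CPM against 6.45 and 15.7 CPM, below the minimum. Dnmt3b, the de novo methyltransferase, had 131 and 190 CPM against 70.4 and 174 CPM.

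Cells outside the gate with UMIs of Pim2, Pou3f1 and Epcam, 175 untreated and 585 with dTAG-13, hold genes of the formative state. They had Pou5f1 at 131 and 167 CPM and L1td1, an RNA-binding protein of pluripotent cells, at 129 and 189 CPM. Their Dppa3 was 8.39 and 5.49 CPM, their Esrrb 0.73 and 1.16 CPM and their Tbx3 1.82 and 0.72 CPM. Pou5f1 and L1td1 thus lay between the levels of the gate and of all other cells, while Dppa3 and Esrrb lay far nearer to those of all other cells.

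Genes of DNA demethylation and methylation divided by member. Of 9 measured, Dnmt3l, Tet1 and Tet2 were higher in gated cells and Tet3 was lower. The shares of all genes were 5.04% higher and 5.65% lower. Tet1, an oxidase of 5-methylcytosine, had 209 and 210 CPM against 63.8 and 75.1 CPM, and Dnmt3l, the cofactor of de novo methylation, had 63.4 and 47.0 CPM against 0.71 and 0.85 CPM. Tet3 had 10.7 and 13.8 CPM against 32.0 and 33.7 CPM. Dnmt1, the maintenance enzyme, and its partner Uhrf1 were within 2-fold in both libraries.

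The genes around Tdh in metabolism were counted next. Of 17 measured genes of threonine, serine and one-carbon metabolism, 1 was higher (Amt) and 1 lower (Mthfd2l), near the 5.04% and 5.65% of all genes. Gcat, the enzyme that takes the product of Tdh onward to glycine, had 80.4 and 84.8 CPM against 76.1 and 73.2 CPM. In the glycolysis list, 3 of 18 were higher (Hk1, Pfkp and Pdk1), and Pfkp, a phosphofructokinase, had 114 and 101 CPM against 15.8 and 19.6 CPM.

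Genes of most of the gastruloid's differentiated types were low. Of 9 measured genes of neuromesodermal progenitors and tail bud, 8 were lower and 0 were higher, and of 4 measured presomitic genes 3 were lower. For somite genes it was 4 of 5, for notochord 3 of 3 and for spinal cord 2 of 2. Over all genes 5.65% were lower. Genes low in the gate could reach 20 CPM through other cells alone, so these counts carry the choice made by the minimum. The summed level of the neuromesodermal list was 177 and 224 CPM in the gate against 1091 and 735 CPM, and that of the presomitic list 52.3 and 72.2 CPM against 448 and 249 CPM. Hoxb9, a posterior Hox gene, had 53.8 and 75.2 CPM against 407 and 275 CPM, and Aldh1a2, the retinoic acid enzyme of somites, had 4.94 and 15.3 CPM against 73.5 and 62.2 CPM. The 10 lowest genes also held Zeb2, Lhx1, Cdh2, Wls, Rspo3, Maml3, Sema6a, Hoxb5os and Ptn. Tcf15, a somite factor, did not follow, with 75.2 and 48.8 CPM against 67.7 and 38.1 CPM.

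The endoderm list, of which 3 genes were measured, did not follow, with Apela higher and Foxa2 lower. Its summed level was 369 and 249 CPM in the gate against 138 and 229 CPM, and most of it was Trh, which stem cells express as well. The endothelium list summed to 106 and 101 CPM against 80.5 and 70.5 CPM, with Pecam1 higher and Lmo2 lower of 3 measured. The surface ectoderm list summed to 90.3 and 115 CPM against 50.03 and 203 CPM, with Dlx5 lower of 4 measured. Each of these counts rests on 1 gene, beside 5.04% higher and 5.65% lower over all genes.

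Several WNT, BMP and NODAL response genes were lower in the gate. Of 9 measured WNT response genes 4 were lower, and of 8 BMP and NODAL response genes Id1, Id2 and Msx1 were lower and Tdgf1 was higher. Tdgf1, the NODAL co-receptor CRIPTO, had 215 and 171 CPM against 7.07 and 8.47 CPM. Of 6 measured ERK feedback genes only Etv5 was higher. In the S phase list 1 of 17 was lower, in the G2 and M phase list 0 of 17 passed in either direction, and in the p53 list 0 of 12 passed. Over all genes 5.04% were higher and 5.65% lower, so the S phase, G2 and M phase and p53 counts are near the background. The ERK count rests on Etv5 alone. The WNT list and the BMP and NODAL list held larger shares of lower genes than the background. Their median log2 ratios were -1.49 and -0.71 for WNT and -1.57 and -0.92 for BMP and NODAL. The median of all genes was -0.09 in both libraries. These lower counts carry the choice made by the minimum, and their source was not tested.

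The gated cells were not uniform. Dppa5a ranged from 3 to 464 UMIs a cell in the untreated and 3 to 592 in the dTAG-13 library, with medians of 108 and 93. Below, gated cells are divided into ranges of Dppa5a CPM, which were set after the data were seen and are not cell types. Cells under 1600 CPM were 15.1% (77) of untreated and 27.3% (213) of dTAG-13 gated cells, and cells of at least 3200 CPM were 63.9% (326) and 47.4% (369).

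**Figure D2:**
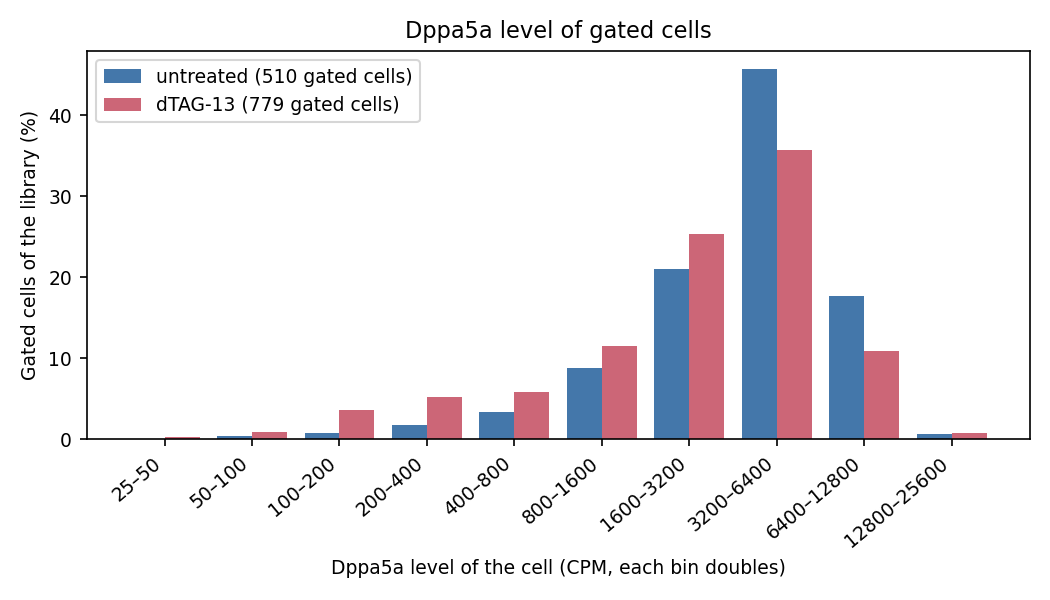
Share of gated cells (percent of the library's gated cells, bars) by the Dppa5a level of the cell in CPM, in bins that double in width, for the 510 untreated (blue) and 779 dTAG-13 (red) gated cells. The bin from 3200 to 6400 CPM holds 45.7% and 35.7%, and each bin below 3200 CPM holds a larger share of the dTAG-13 cells.

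Naive genes that the gate did not use were higher in cells with more Dppa5a. The summed level of the 13 naive factors went from 363 CPM below 400 CPM of Dppa5a to 1609 CPM at 6400 CPM and above in untreated cells, and from 360 to 1568 CPM with dTAG-13. Nanog went from 17.9 to 155 CPM and from 22.2 to 173 CPM, and Ooep from 1.79 to 206 CPM and from 6.35 to 217 CPM. Formative and posterior genes ran the other way: Dnmt3b went from 247 to 49.2 CPM and from 325 to 38.4 CPM, and Hoxb9 from 209 to 7.14 CPM and from 140 to 2.89 CPM. The summed neuromesodermal list went from 648 to 47.9 CPM and from 477 to 21.4 CPM. All of these values share the libraries and, within a cell, the total that CPM divides by.

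The lower ranges also held more cells marked as doublets, 29.9% and 28.2% of cells under 1600 CPM against 6.13% and 5.96% of cells of at least 3200 CPM. Median depth was 31137 and 37226 UMIs against 25955.5 and 26915. Without the marked cells, Hoxb9 under 1600 CPM was 75.6 and 109 CPM in place of 178 and 144 CPM, whereas Dnmt3b was 299 and 357 CPM in place of 232 and 308 CPM. Pim2 was 113 and 110 CPM in place of 80.8 and 83.2 CPM, and Pou3f1 54.4 and 90.2 CPM in place of 33.8 and 66.4 CPM. These 3 formative genes were thus higher, and Hoxb9 lower, once the marked cells were left out. The part of doublets that were not marked was not tested.

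**Figure D3:**
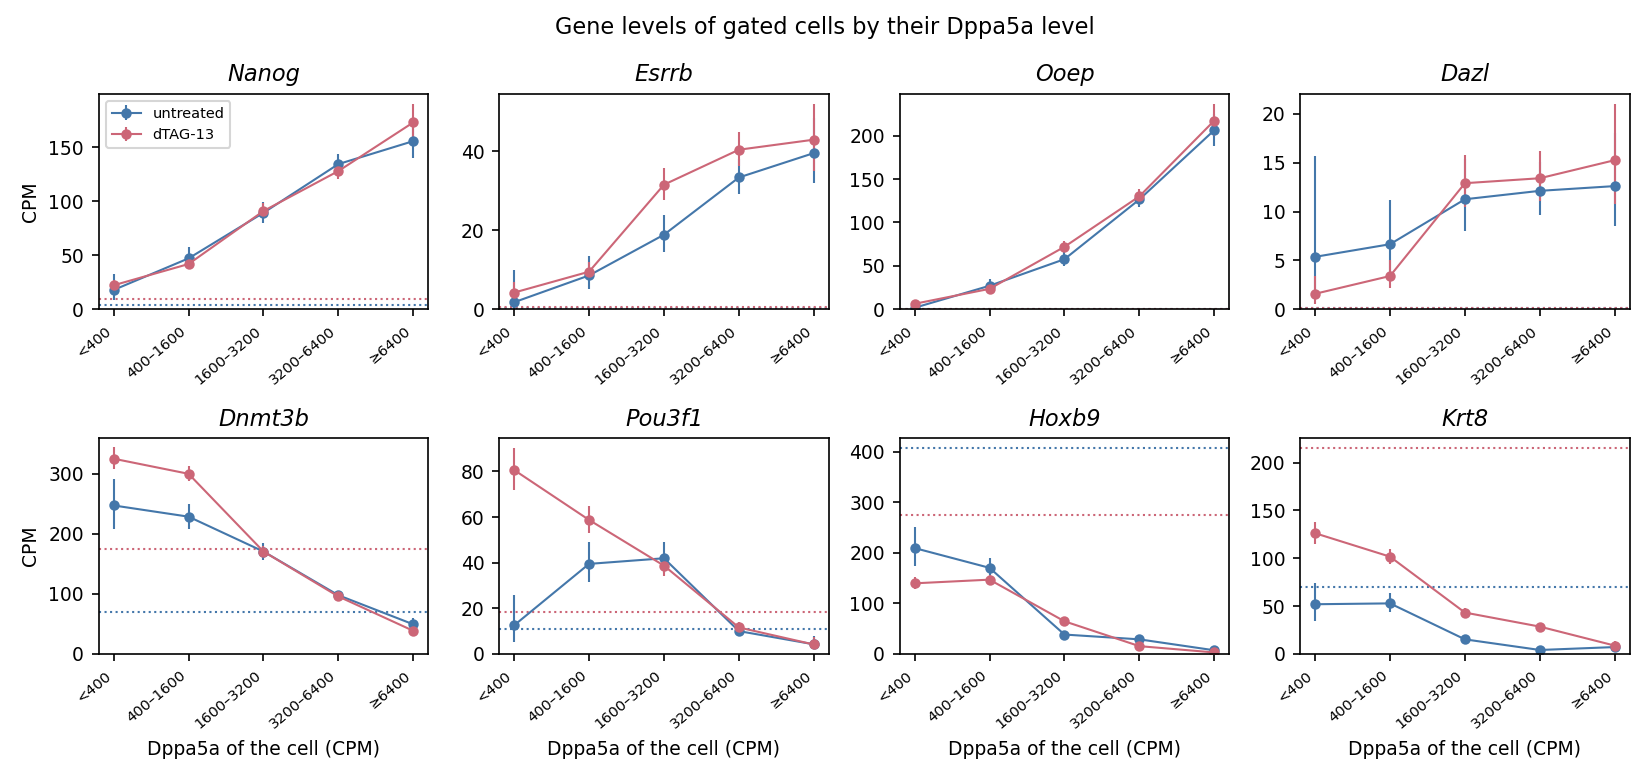
CPM of 8 genes in gated cells by the Dppa5a range of the cell, untreated in blue and dTAG-13 in red, with bars for the 95% Poisson interval and dotted lines for the other cells of each library. Nanog, Esrrb, Ooep and Dazl are highest at high Dppa5a, and Dnmt3b, Hoxb9 and Krt8 are highest at low Dppa5a in both libraries.

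Within the gate, 66 of 5593 genes (1.18%) were at least 1.5-fold higher with dTAG-13 and 10 (0.179%) were at least 1.5-fold lower. These genes had at least 20 CPM in gated cells of a library. In other cells, 131 of 5859 genes (2.24%) were higher and 51 (0.87%) lower. Of the 66 higher genes, 32 reached 20 CPM only in the dTAG-13 gate, and of the 10 lower genes 2 did so only in the untreated gate. Among gated cells of at least 3200 CPM of Dppa5a, 12 of 5423 genes (0.221%) were higher and 9 (0.166%) lower. That range is cut on a gate gene which was itself lower with dTAG-13 over the gate, with a log2 ratio of -0.48, and near level within the range, at -0.05, so the source of the difference in counts was not tested. With each cell given equal weight, as a mean of CPM over cells, the counts were 15 and 3. For gated against other cells, DESeq2 size factors moved the median log2 ratio of all genes from -0.09 to 0.02 in the dTAG-13 library.

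Few naive genes passed the fold with dTAG-13. Of 11 measured naive factors, 0 passed in either direction, with a median log2 ratio of -0.27 over the gate and -0.02 at 3200 CPM and above. For the effectors, 2 of 26 were lower (Morc1 and Trh) and 0 were higher, with medians of -0.24 and 0.03. Among all genes measured in the gate 1.18% were higher and 0.179% lower, so the count for the factors is near the background. The lower effectors were a larger share than the background, resting on 2 genes. Klf2 had a log2 ratio of -0.46 over the gate and -0.22 at high Dppa5a, while Nanog had -0.34 and -0.02 and Esrrb -0.01 and 0.22. Of the 319 gate-high genes, 87.5% lay below 0 with a median of -0.20, against 48.9% of all genes measured in the gate, and at high Dppa5a 40.1% lay below 0 with a median of 0.03. These 319 genes were chosen by their levels in the same gated cells, and all 319 reached 20 CPM there. Their share below 0 carries that choice and is a description only. Of the 358 gate-low genes only 115 reached 20 CPM in the gate, 29 of them in the dTAG-13 library alone, so no share or median is given for them.

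Keratins gave the highest ratios in the gate among genes with at least 20 CPM in a library and 50 UMIs. Of the highest 12 genes only Espn and Cd24a reached 20 CPM in the untreated gate. The ranking thus carries the choice made by the minimum. Krt8, an intermediate filament of simple epithelia, had 15.7 CPM untreated and 61.2 CPM with dTAG-13, a log2 ratio of 1.90 (interval of the ratio without prior 1.77 to 2.17). Its partner Krt18 had 17.6 and 61.0 CPM, a log2 ratio of 1.74 (1.61 to 1.99). The genes are neighbours on mm10, Krt8 at chr15:101996698-102004482 on the minus strand and Krt18 at chr15:102028180-102032027 on the plus strand. At high Dppa5a Krt8 went from 4.90 to 24.0 CPM and Krt18 from 7.68 to 18.97 CPM, so the direction was the same there. In other cells Krt8 went from 70.3 to 215 CPM and Krt18 from 61.7 to 191 CPM. Their log2 ratios there were 1.60 and 1.61, so the difference was not particular to the gate. Without the marked doublets the log2 ratios over the gate were 1.94 and 1.67. At 5000 UMIs Krt8 was detected in 4.13% and 11.1% of gated cells, and in 2.15% and 4.89% of those at high Dppa5a. The share in other cells was 19.7% and 44.9% at the same depth, and without thinning the shares were 17.3% and 36.1% in the gate against 40.1% and 70.3% outside it. The part of free RNA in the keratin levels of the gate was not tested.

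Of the 20 epithelial genes listed 12 were measured, of which Krt8, Krt18, Cldn3, Cldn6, Cldn7 and Rab25 were higher and 0 were lower. Among all genes measured in the gate 1.18% were higher and 0.179% lower. The median log2 ratio of the 12 epithelial genes was 0.52 in the gate and 1.60 in other cells, so the difference was not particular to the gate. Of the 6 higher genes, only Cldn7, a claudin of tight junctions, reached 20 CPM in the untreated gate, with 28.0 and 55.8 CPM. Their count thus carries the choice made by the minimum. At high Dppa5a 1 of 10 measured was higher. Cdh1, the gene of E-cadherin and a textbook target of repression by ZEB2, had 43.4 and 45.9 CPM in the gate. In other cells it had 15.9 and 46.8 CPM. Epcam likewise had 305 and 351 CPM in the gate and 194 and 529 CPM outside it. The Cdh1 log2 ratio was 0.08 in the gate and 1.50 in other cells, and the difference between them was not tested. Zeb2 mRNA itself had 9.21 and 24.6 CPM in the gate, 3.56 and 7.10 CPM at high Dppa5a and 73.6 and 107 CPM in other cells. The tag acts on the protein, so this mRNA does not check the treatment.

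Of the 16 BMP and NODAL response genes listed 7 were measured, of which Id1, Id2, Msx1 and Lefty1 were higher and 0 were lower. Among all genes measured in the gate 1.18% were higher and 0.179% lower. Id2, Msx1 and Lefty1 reached 20 CPM only in the dTAG-13 gate. At high Dppa5a 0 of 3 measured passed, with a median log2 ratio of -0.08. Id1, Id2, Msx1 and Lefty1 lay below the minimum there and were not among the 3. Id1 had 20.6 and 41.2 CPM over the gate and 10.7 and 12.1 CPM at high Dppa5a. Id2, an inhibitor of bHLH factors, had 10.1 and 30.4 CPM over the gate but 7.13 and 7.76 CPM at high Dppa5a. Lefty1, an inhibitor of NODAL, had 11.6 and 33.6 CPM, and 7.57 and 14.7 CPM at high Dppa5a. Of 12 measured formative genes, Pou3f1, Sox4 and Sox11 were higher, against 1.18% of all genes. Here too a gene could reach 20 CPM in the dTAG-13 gate alone. The median log2 ratio was 0.30 over the gate, and -0.06 among the 8 genes measured at high Dppa5a. The highest 12 genes were completed by Wls, Sfrp1, H19, Cldn6, Espn and Cd24a, of which H19 turned from 1.05 over the gate to -0.15 at high Dppa5a. At high Dppa5a, 2 of these 12, Krt8 and Espn, still passed both the fold and the minimum of 20 CPM. Krt18, Msx1, Sfrp1, Lefty1 and Zeb2 kept log2 ratios of 1.20, 1.03, 0.93, 0.87 and 0.83 there but lay below the minimum in both libraries. Id2, Wls, H19, Cldn6 and Cd24a did not keep the fold.

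Of the lowest 12 genes 9 were past the fold, and 5 of these were also past it at high Dppa5a. Trh, the precursor of thyrotropin-releasing hormone, had 287 CPM untreated and 168 CPM with dTAG-13, a log2 ratio of -0.77 (-0.83 to -0.71), and 279 and 180 CPM at high Dppa5a. In other cells Trh had 95.6 and 147 CPM, which is the opposite direction. At 5000 UMIs it was detected in 47.0% and 37.3% of gated cells and in 7.98% and 10.3% of other cells, and without thinning in 72.7% and 67.9% of gated cells. Peg10, an imprinted gene derived from a retrotransposon, had 159 and 96.5 CPM, a log2 ratio of -0.71 (-0.80 to -0.64). It was lower with dTAG-13 in every range of Dppa5a, from 385 and 154 CPM in the lowest to 83.2 and 37.1 CPM in the highest. Morc1, among the highest genes of the gate, had 222 and 142 CPM over all gated cells and 249 and 206 CPM at high Dppa5a.

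Several of the other low genes were also low outside the gate. Hist1h2ap had log2 ratios of -0.81 in the gate and -1.18 in other cells, Hist1h2ae -0.71 and -0.75, Tcf15 -0.61 and -0.81 and the ribosomal gene Rps27 -0.59 and -0.54. Reads of histone genes can be shared among very similar copies, which makes these values uncertain. Gapdh, a glycolytic enzyme with 644 and 989 CPM in the gate, showed a shared difference in the other direction, with log2 ratios of 0.62 in the gate and 0.60 in other cells. With 1 library a group, such differences and the treatment cannot be told apart. Sord, Mageb16, Zfp980, Kank3 and Rnft1 completed the lowest 12, with log2 ratios from -0.63 to -0.56 in the gate and from -0.01 to 0.08 in other cells.

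**Figure D4:**
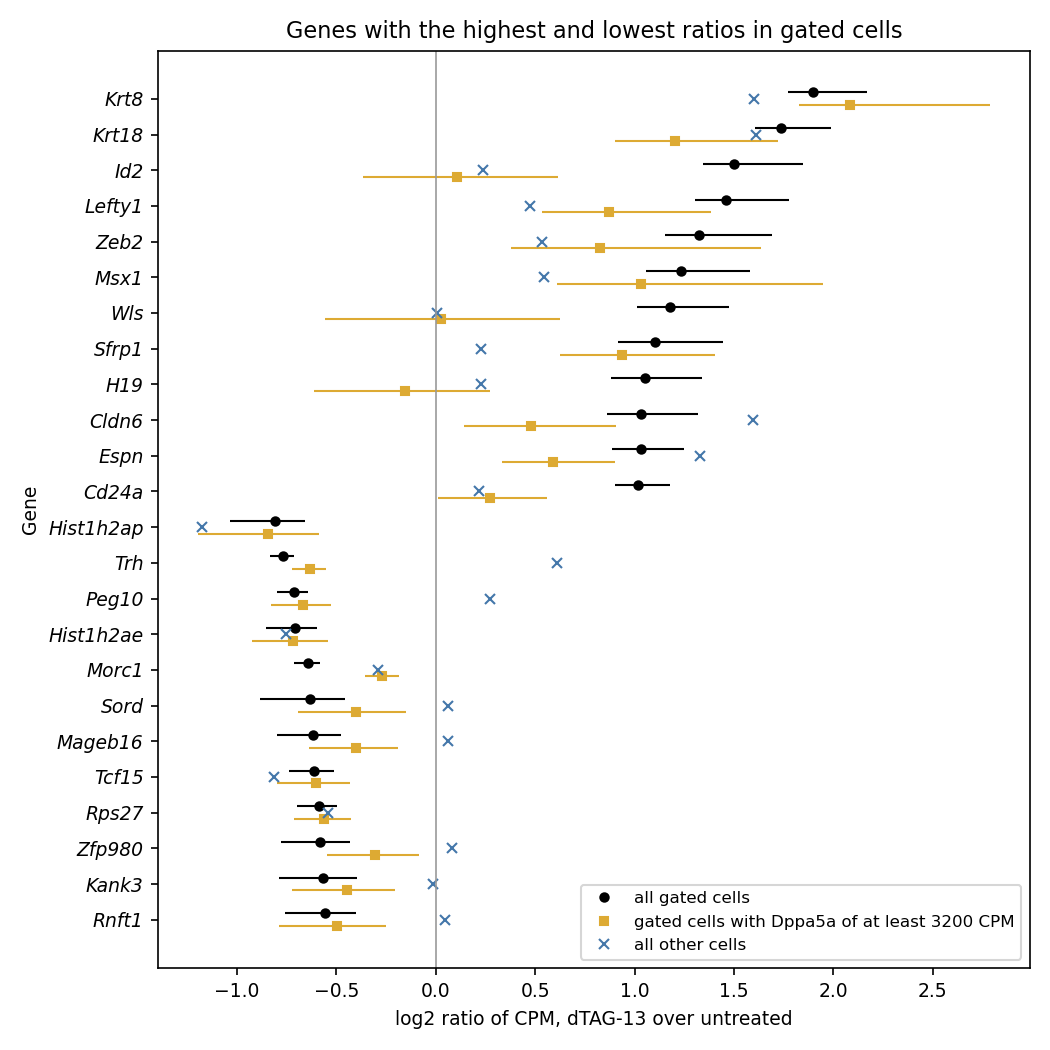
Log2 ratio of CPM, dTAG-13 over untreated, for the 12 highest and 12 lowest genes, over all gated cells (black circles), gated cells with at least 3200 CPM of Dppa5a (yellow squares) and all other cells (blue crosses), with lines for the 95% counting interval of the ratio. Id2, Wls and H19 lie near 0 at high Dppa5a, while Krt8, Trh and Peg10 keep their side.

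Primitive endoderm genes were detected together in a few dTAG-13 cells of the gate. All 4 of Gata6, Gata4, Sox17 and Dab2, chosen after their values were seen, were detected in 0 untreated and 6 dTAG-13 gated cells, and in 9 untreated and 10 dTAG-13 other cells. The 6 cells held 119 of the 169 Dab2 UMIs and 125 of the 293 Gata6 UMIs of the dTAG-13 gate. Their median depth was 76101.5 UMIs and 4 of them were among the marked doublets. At high Dppa5a, 2 such cells, of which 1 was marked, held 71 of 79 Dab2 UMIs, so the levels of Dab2 there, 0.45 CPM untreated and 7.38 CPM with dTAG-13, rest on 2 cells.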

How the data were processed

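Single-cell RNA was measured in 2 libraries, 1 per group. The authors deposited counts of UMIs per gene and barcode, whole numbers without normalization, for 32285 genes. Cell Ranger 6.1.2 and mm10 are named by the submitters' processing notes. No source used here states how strand was counted, which leaves overlapping genes uncertain. Positions are from GENCODE M21.

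Barcodes with under 1000 genes or over 10% mitochondrial UMIs were removed (630 untreated, 693 dTAG-13). Scrublet's automatic threshold (scanpy 1.11.5) marked 1 and 0 barcodes, which is too few to be credible, so the highest scores were marked at 0.8% per 1000 barcodes (424 and 496) and kept in the main values. UMIs were summed over the cells of a group and scaled to CPM. Log2 ratios used a prior of 1 CPM and a minimum of 20 CPM, with exact Poisson, conditional or Clopper-Pearson intervals. The difference of shares has a Newcombe interval. For symbols shared by several identifiers, the one with the most UMIs was used. Functions were tested on simulated data. Alternatives used edgeR 4.0.16 (TMM) and DESeq2 1.42.0 size factors for scaling only, with no test by either tool.

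Named genes were the 15 highest and 10 lowest of gated against other cells with at least 50 CPM, ranked by the smaller ratio of the libraries, the 12 highest and 12 lowest with dTAG-13 in the gate with at least 20 CPM and 50 UMIs, and members of 29 gene lists. Predicted genes were passed over (3 in all). The members, lists and alternatives were chosen with earlier results of these data known, and the Dppa5a ranges and the primitive endoderm cells after the values were seen.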

Additional observations from a re-analysis of the deposited data

Results flagged for a closer look

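Trh and Rspo3 differed between gated and other cells in opposite directions with dTAG-13, each past 1.5-fold, and the difference itself was not tested. Trh had a log2 ratio of -0.77 in gated cells and 0.61 in other cells. Rspo3, a secreted enhancer of WNT signalling, had 0.82 in gated cells, from 18.6 to 33.6 CPM, and -0.68 in other cells, from 224 to 139 CPM. In gated cells with at least 3200 CPM of Dppa5a, Trh had -0.63. Rspo3 had -1.30 there, from 11.8 to 4.2 CPM, below the minimum of 20 CPM and in the direction of the other cells.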

How the results depend on the processing

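The share of gated cells was higher with dTAG-13 under all 6 alternatives. A stricter gate (2 Zfp42, 2 Tdh and 10 Dppa5a UMIs) gave 6.95% and 9.35%. Thinning gave 5.26% and 6.92% with a difference of 1.66 points, and a limit of 5% mitochondrial UMIs 4.89% and 7.44%. Removal of marked doublets gave 7.29% and 9.76% with a difference of 2.48 points. Genes past the fold against other cells numbered 938 higher and 818 lower without a minimum CPM and 676 lower at high Dppa5a, an alternative chosen after seeing the data. With dTAG-13 in the gate, higher genes numbered 486 without a minimum, 15 with equal weight per cell and 12 at high Dppa5a. Lower genes numbered 5 with a prior of 5 CPM, 83 without a minimum, 5 without marked doublets, 26 after thinning and 3 with equal weight per cell. The named genes were not all kept. Of the 12 highest, 5 still passed the fold and the minimum after thinning, 6 with equal weight and 7 without marked doublets. Of the 9 among the lowest that were past the fold, 1, 3 and 5 still passed. After thinning, the log2 ratio of Msx1 was 0.20, that of Trh -0.58 and that of Peg10 -0.57. H19 was reversed at high Dppa5a, with a log2 ratio of -0.15. The causes were not tested. TMM scaling and DESeq2 size factors kept each count within 1.5 times. No paired analysis was possible because each group has 1 library, and for the same reason no replicate could be left out.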
